A study of Mus musculus with 4 samples.

Results

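Osteoclasts that had matured on dentin slices were compared with the pre-osteoclasts they came from, gene by gene, on 2 of the 4 arrays of the series, 1 for each kind of cell. All 18193 genes with a probe set assigned to a single gene symbol were described, the same 18193 that the whole series offers. Both cell types began as marrow of C57BL/6 mice aged 8 to 10 weeks, grown for 3 days with the macrophage growth factor M-CSF at 100 ng/ml into bone marrow macrophages (BMM). RANKL, the cytokine that drives osteoclast formation, was added at 100 ng/ml beside M-CSF for 2 days, which gave mononuclear pre-osteoclasts (pOC) positive for the osteoclast stain TRAP. The pre-osteoclasts were then kept for 2 more days with both cytokines, on dentin (mOCd) or on plastic (mOCp), where they became multinucleated. M-CSF was thus present in every culture, and RANKL in all but BMM. No genetic change is named for any of them. Whether 1 animal or several supplied an RNA, and how many cells of a dentin culture were multinucleated, is not given in the sources used here. Because 2 further days, maturation and contact with dentin all lie between the arrays, they cannot be told apart here. In RNA from a whole culture, fewer cells of a type and less RNA per cell cannot be told apart either.

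Osteoclasts are the cells that dissolve bone and dentin. They form when macrophage precursors fuse under M-CSF and RANKL, attach through an integrin and a ring of actin, and acidify the sealed space below with a proton pump and a chloride channel, while secreted proteases digest the exposed collagen. They also release or display proteins that act on bone-forming cells, which the study's title calls the coupling of resorption to formation, with Cthrc1 as the gene of interest.

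The values were fluorescence intensities on a linear scale, with the same trimmed mean on every array. Each array was floored at the median of its non-control probe sets, an intensity of 14.5 in pOC and 15.8 in mOCd. Of the 18193 genes, 9779 lay above the floor on both arrays, 936 in mOCd alone, 1185 in pOC alone and 6293 on neither. To be counted, higher or lower in mOCd, a gene needed a 2-fold ratio of floored values and a brighter value at or over the 75th percentile of its array (81.5 in pOC, 79.1 in mOCd). A ratio against a floored value is a bound, written as at least N-fold. Log2 ratios of other probe sets use the same floors, and some are bounds too. Among 7230 genes bright enough to be counted, called eligible here, 779 were higher (10.8%) and 886 lower (12.3%) in mOCd. At least 4-fold differences numbered 170 (2.35%) and 190 (2.63%). With 1 array a group there is no spread between replicates and no test, so every ratio describes a pair of arrays. The closest guide to error was how far probe sets of 1 gene disagreed, an SD of 0.56 in log2 ratio over 5571 genes, which holds nothing of the variation from animal to animal, from culture to culture or between arrays. A second probe set above the floor was present for 969 counted genes and had the direction of the first for 843 of them (87.0%). The share counted was 35.3% among the dimmest 1808 eligible genes and 15.9% among the brightest 1808.

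The split between higher and lower depended on scaling. Equal medians of the non-control probe sets gave 636 higher and 1090 lower genes and moved the median gene from 0.01 to −0.11 in log2 ratio, and equal spike-in controls gave 443 and 1596 and moved it to −0.34. The spike-ins read 0.35 higher in mOCd on the log2 scale over 12 probe sets, so shifts of a list by that much or less are relative to the scaling. The signal of 3′ over 5′ control probe sets was higher in mOCd by 0.69 (log2) for Tfrc and 0.61 for pyruvate carboxylase, and differed by 0.03 for Gapdh and −0.01 for Actb. The part of RNA quality in the results was not tested.

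**Figure D1:**
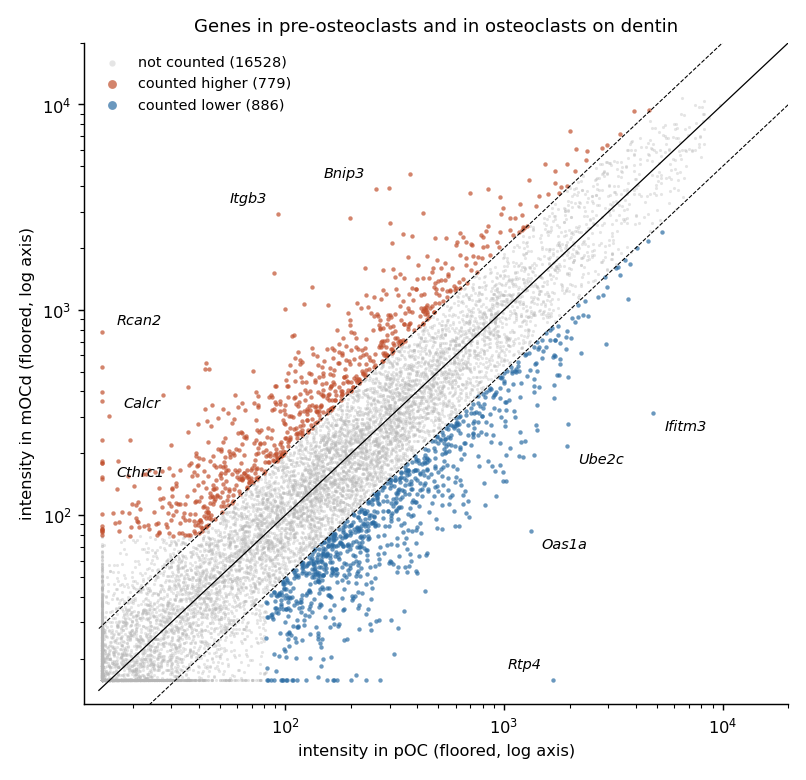
Each point is a gene, with its intensity in pOC on the horizontal and in mOCd on the vertical axis, both on log scales and floored. The solid line marks equal values and the dashed lines 2-fold, and the 779 genes counted higher and 886 counted lower are coloured, with Itgb3 and Rcan2 far above the line and Rtp4 and Ifitm3 far below it.

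Both arrays carried the labelled cell type's markers. Ctsk, the collagen-degrading protease cathepsin K, read 8026.2 in pOC and 9744.5 in mOCd, against 22.5 in BMM. Acp5, which encodes TRAP, read 6674.9 and 8858.4, and the gelatinase Mmp9 read 6526.8 and 10789.8. These genes were thus already near the top of the scale in pre-osteoclasts, and none of the 3 reached 2-fold. Dcstamp and Ocstamp, membrane proteins needed for cell fusion, read 2187.1 and 1946.5 in pOC and 4200.6 and 3773.6 in mOCd, with log2 ratios of 0.94 and 0.96 that stopped just short of 2-fold.

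Of the 18 genes of the resorption machinery, 17 were eligible, 9 of them higher (52.9%) and 0 lower in mOCd. All 18 log2 ratios were above 0 (median 1.01, against −0.01 over all eligible genes). Itgb3, the beta chain of the vitronectin receptor through which osteoclasts grip the mineral, read 1.0, 92.1, 480.8 and 2939.3 in BMM, pOC, mOCp and mOCd. It was 31.9-fold higher in mOCd than in pOC, the largest ratio among named genes measured on both arrays, although its other probe set gave a log2 ratio of 2.77 against 5.0. Calcr, the receptor for the resorption-stopping hormone calcitonin, read 15.5 in pOC, barely over the floor, 283.1 in mOCp and 305.3 in mOCd (19.7-fold). Oscar, a collagen-binding immune receptor that co-stimulates osteoclast formation, read 300.2 in pOC and 2641.6 in mOCd (8.80-fold).

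The machinery for acid was higher by less. Clcn7, the chloride transporter of the ruffled border, was 3.03-fold higher in mOCd, and Ostm1, its partner subunit, 3.04-fold. Slc4a2, the exchanger that removes bicarbonate from the cell, was 2.76-fold higher and the sodium/proton exchanger Slc9b2 2.65-fold. Car2, the carbonic anhydrase that supplies the protons, read 1251.9 and 1797.0 and was not counted. Of 16 eligible subunits of the V-ATPase, the proton pump itself, 2 were higher and 0 lower: Atp6v1e1 at 2.19-fold and Tcirg1, the pump's osteoclast a3 subunit, at 2.07-fold. That is close to the 10.8% of all eligible genes, while 15 of 17 measured subunits had small ratios above 0 (median 0.70, and 0.34 with equal spike-ins).

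The actin and podosome list, which holds the parts of the sealing ring, had 7 higher and 1 lower among 37 eligible genes. These shares were 18.9% and 2.70%, against 10.8% and 12.3% of all eligible genes. The median was 0.44, and 0.08 with equal spike-ins. Vinculin (Vcl), which links integrins to actin, read 575.0 in pOC and 1590.3 in mOCd (2.77-fold higher), with 0.33 on its other probe set. The adhesion kinase Ptk2b was 3.13-fold higher, but its other probe set gave −0.02. The 1 lower member was Lpxn, the podosome adaptor leupaxin, at 1683.5, 451.3, 183.9 and 103.2 in BMM, pOC, mOCp and mOCd (4.37-fold lower). It was brightest in BMM and dimmest on dentin.

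Calcium signalling to the osteoclast transcription factor NFATc1 was represented by 16 eligible genes. Of these, 4 were higher (25%, against 10.8% of all eligible genes) and 0 lower. Rcan2, a modulator of the phosphatase calcineurin, read 0.3, 7.2, 151.7 and 780.4 in BMM, pOC, mOCp and mOCd. It was at least 53.8-fold higher in mOCd than in pOC (log2 ratio of at least 5.75, and 3.20 on its other probe set), the highest bound among named genes at the floor in pOC. Rcan3, from the same family, was 4.50-fold higher, with 0.25 on the other probe set, and the calcium release channel Itpr3 3.26-fold. Nfatc1 itself read 2549.2 in pOC and 3330.6 in mOCd and was not counted.

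Among 25 eligible genes of RANK signalling and the osteoclast transcription factors, 4 were higher and 2 lower. These shares, 16% and 8%, were near the 10.8% and 12.3% of all eligible genes. The median of 0.23 became −0.13 with equal spike-ins. Traf6, the adaptor of the RANK receptor, was 2.58-fold higher, with other probe sets from −0.28 to 2.63, and Ppargc1b, a coactivator of mitochondrial genes in osteoclasts, 2.10-fold. Myc was 2.38-fold lower. Nfatc2, another NFAT factor, was lower as well, at 108.3 in pOC and 28.7 in mOCd (log2 ratio −1.92). Its other probe sets above a floor were dim and gave −0.22 and 0.63. Jdp2, Fos and Prdm1, factors of osteoclast formation, read 3656.0, 3554.5 and 855.7 in pOC and 3684.0, 3853.3 and 1010.3 in mOCd, close to equal. Id2, an inhibitor of helix-loop-helix factors that restrains osteoclast formation, had its lowest value in pOC: 1783.9, 232.3, 300.7 and 1182.5 in BMM, pOC, mOCp and mOCd. It was thus 5.09-fold higher in mOCd than in pOC, and its other probe sets gave 0.44 to 2.48.

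Secreted and displayed proteins that other work links to osteoblasts had 10 higher and 2 lower among 19 eligible genes (52.6% and 10.5%). Over all eligible genes these shares were 10.8% and 12.3%, so the share lower was near theirs. Cthrc1, a secreted protein with collagen-like repeats, read 11.8, 4.0, 26.4 and 179.9 in BMM, pOC, mOCp and mOCd, so that mOCd alone exceeded the 75th percentile. It was at least 12.4-fold higher in mOCd than in pOC, from a single probe set. Since the study picked Cthrc1, and may have done so from these arrays, its direction is not independent evidence. Fstl1, a secreted follistatin-like glycoprotein, followed the same order with 0.5, 1.1, 200.0 and 397.5 (at least 27.4-fold higher than in pOC), and its other probe set gave 4.20.

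Gas6, a ligand for receptors that recognise dying cells, read 739.8, 88.4, 1072.4 and 1513.8 in BMM, pOC, mOCp and mOCd. It was 17.1-fold higher in mOCd than in pOC (log2 ratio 4.10). Its other probe set read 2.6 in pOC, under the floor, and 27.4 in mOCd, a log2 ratio of at least 0.92. The platelet-derived growth factor genes Pdgfb and Pdgfa were 3.78-fold and 3.20-fold higher, and their other probe sets had the same direction at 1.89 and 2.72. Lif, a cytokine of the interleukin 6 family, read 89.4 in pOC and 425.4 in mOCd (4.76-fold), Sphk1, which makes sphingosine 1-phosphate, was 3.69-fold higher, and Tgfb1 2.05-fold. Apoe, the carrier of lipids, was 4.99-fold higher. The lower members were Vegfc, a lymphatic growth factor, at 187.0 and 78.5, and Igfbp4, a binding protein of insulin-like growth factors, at 278.4 and 97.1. There were 10 list members under both floors, among them Wnt10b, Bmp6 and Slit3, and have no ratio here.

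**Figure D2:**
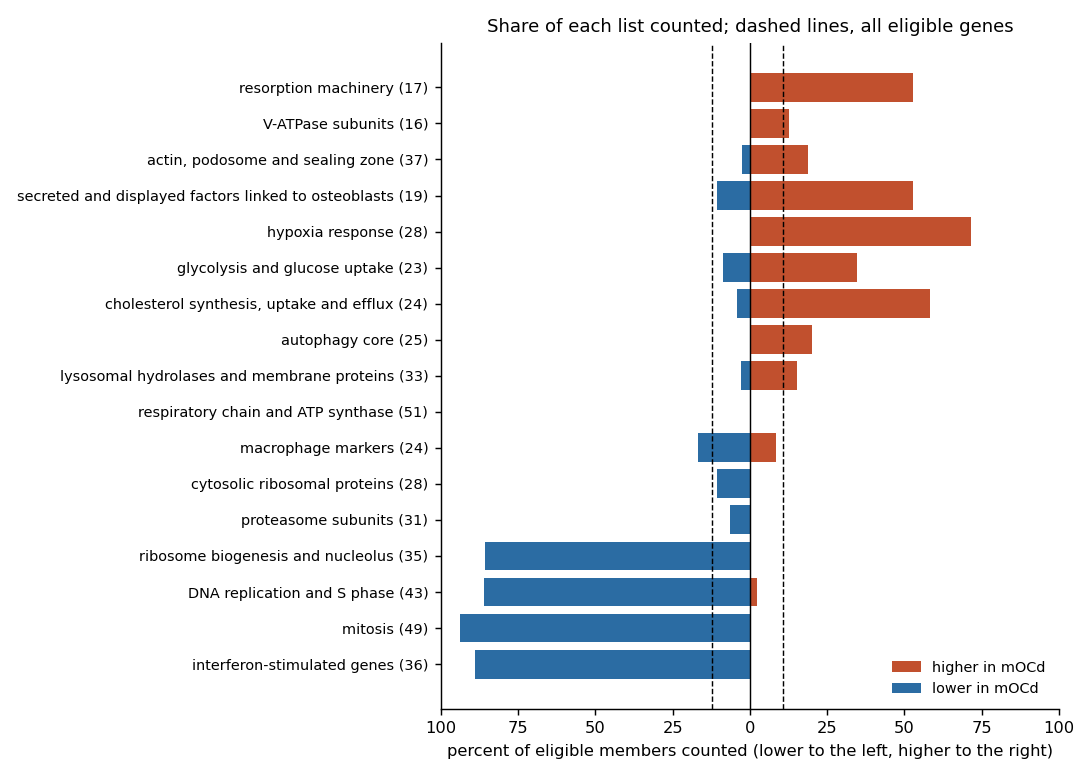
Bars give the percentage of each list's eligible members counted higher (right) or lower (left) in mOCd than in pOC, with the number of eligible members after the list's name. Dashed lines mark 10.8% higher and 12.3% lower over all eligible genes, and 4 lists at the bottom, ribosome biogenesis, DNA replication, mitosis and interferon-stimulated genes, reach far beyond them to the left.

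Genes of the response to low oxygen were the list with the highest share counted higher among those shown, at 20 of 28 eligible members and 0 lower (71.4%, median log2 ratio 1.79). This response runs through HIF transcription factors, which adjust glucose use, mitochondria and vessel growth when oxygen is scarce. Bnip3, a receptor for the removal of mitochondria, read 202.9, 258.9, 3637.7 and 3884.1 in BMM, pOC, mOCp and mOCd (15.0-fold over pOC). Vegfa, the vessel growth factor, read 23.4, 44.6, 217.2 and 513.5 in the same order (11.5-fold). Both osteoclast arrays lay far above both earlier stages for these genes.

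Ak4, a mitochondrial adenylate kinase, was under the floor in pOC (1.6) and read 359.7 in mOCd (at least 24.8-fold). Egln3 and Ankrd37 were likewise under the floor in pOC and at least 12.7-fold and 12.4-fold higher; the former is an oxygen-sensing prolyl hydroxylase. Egln1, another such enzyme, was 3.59-fold higher, the collagen prolyl hydroxylases P4ha1 and P4ha2 3.20-fold and 6.90-fold, and the lipid droplet protein Hilpda 3.31-fold. Hif1a, which encodes the oxygen-regulated subunit, read 954.8 in pOC and 648.5 in mOCd and was not counted. The median over the list was 1.59 for mOCp over pOC, a comparison that shares the pOC array.

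Glucose uptake and glycolysis had 8 higher and 2 lower among 23 eligible genes (34.8% and 8.70%, median 0.77). Over all eligible genes these shares were 10.8% and 12.3%. The glucose transporter Slc2a1 read 483.5 in pOC and 2246.0 in mOCd (4.65-fold), and the lactate exporter Slc16a3 49.0 and 298.1 (6.08-fold). Aldoc, an aldolase, was 10.1-fold higher, with at least 1.32 on its other probe set, and the liver-type phosphofructokinase Pfkl 4.53-fold. The 2 lower members were the hexokinase Hk3 (2.08-fold) and Slc16a1, another lactate carrier (3.64-fold, 553.4 and 152.0), so the 2 lactate carriers had opposite directions. Genes of the respiratory chain and ATP synthase differed little: 0 of 51 eligible genes were counted, while 50 of 52 ratios were above 0, with a median of 0.40 that shrank to 0.05 with equal spike-ins.

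Promoters of the hypoxia list were searched for the core of the HIF binding element, ACGTG, on both strands, over 250 bases before and 50 from the start site on. RefSeq promoter sequences (assembly GRCm38.p6) were found for 18 of the 20 members counted. The letters stood in 18 of their 30 promoters (60%), in 7 of 10 promoters of measured members not counted (70.0%), and in 19.6% of all 32851 promoters of this length. The share was no higher among the members counted than among those not counted. The promoter of Bnip3 is shown from 200 bases before to 20 bases from the start site on, since this gene had the largest ratio of the list measured on both arrays, with overlapping matches on opposite strands in capitals (chr7:138909487-138909706, minus strand).
Bnip3: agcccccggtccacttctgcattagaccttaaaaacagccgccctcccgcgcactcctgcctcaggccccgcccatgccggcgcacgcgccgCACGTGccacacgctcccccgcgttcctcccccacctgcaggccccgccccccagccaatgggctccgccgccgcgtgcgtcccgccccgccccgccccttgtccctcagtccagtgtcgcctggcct

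Genes of cholesterol synthesis and its control had 14 higher and 1 lower among 24 eligible members (58.3% and 4.17%, median 0.98). Over all eligible genes these shares were 10.8% and 12.3%. Cyp51, a demethylase of the sterol pathway, read 467.3, 58.4, 179.8 and 294.3 in BMM, pOC, mOCp and mOCd (5.04-fold over pOC). Insig1, the membrane protein that holds back the sterol sensor, read 407.4, 90.5, 254.3 and 427.0 (4.72-fold), and Hmgcs1, an early enzyme of the pathway, 1245.0, 535.0, 1078.5 and 1693.7 (3.17-fold). These members were lowest in pre-osteoclasts and returned towards, or past, the macrophage value on dentin. Msmo1, Fdft1 and Sqle, further enzymes of cholesterol synthesis, were 4.51-fold, 3.55-fold and 3.55-fold higher than in pOC.

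The 1 lower member was Abcg1, an exporter of cholesterol, at 197.0, 267.0, 165.6 and 60.8 in BMM, pOC, mOCp and mOCd (4.39-fold lower, −0.67 as a bound on its other probe set). Its direction was opposite to that of the synthesis enzymes. Related lipid genes were mixed: Scd2, a fatty acid desaturase, and Acsl3, which activates fatty acids, were 2.64-fold and 4.14-fold higher, while Fasn, the fatty acid synthase, was 2.07-fold lower. The core of the sterol response element, TCACNCCAC, stood in 1 of 12 promoters of the members counted, in 0 of 21 of the measured members not counted, and in 1.24% of all promoters. That 1 promoter was that of Hmgcs1, shown over the same window with the match in capitals (chr13:119690151-119690370, plus strand).
Hmgcs1: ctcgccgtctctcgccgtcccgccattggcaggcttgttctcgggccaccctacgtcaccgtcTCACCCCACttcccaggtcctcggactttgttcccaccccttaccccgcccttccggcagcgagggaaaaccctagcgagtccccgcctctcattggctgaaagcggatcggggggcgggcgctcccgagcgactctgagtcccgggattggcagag

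Autophagy and lysosome genes contained a few large differences among many small ones. Of 25 eligible autophagy genes 5 were higher (20%, against 10.8% of all eligible genes) and 0 lower. Map1lc3a, which encodes a form of the autophagosome protein LC3, read 203.3, 297.6, 2975.8 and 3898.5 in BMM, pOC, mOCp and mOCd (13.1-fold over pOC), and its other probe set gave 4.14. Among 33 eligible lysosomal genes 5 were higher and 1 lower (15.2% and 3.03%). The share higher was near the 10.8% of all eligible genes, and the share lower was under their 12.3%. The median was 0.55, and 0.20 with equal spike-ins. Glb1, the beta-galactosidase, read 427.8 and 2967.9 (6.94-fold), Arsb, a sulfatase of dermatan sulfate, 2003.2 and 7435.7 (3.71-fold), and Naglu, which acts on heparan sulfate, 164.0 and 650.9 (3.97-fold). The membrane protein Lamp1 was 2.23-fold lower (1427.7 and 641.4). Rab38, a GTPase of lysosome-related organelles, was 5.08-fold higher.

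**Figure D3:**
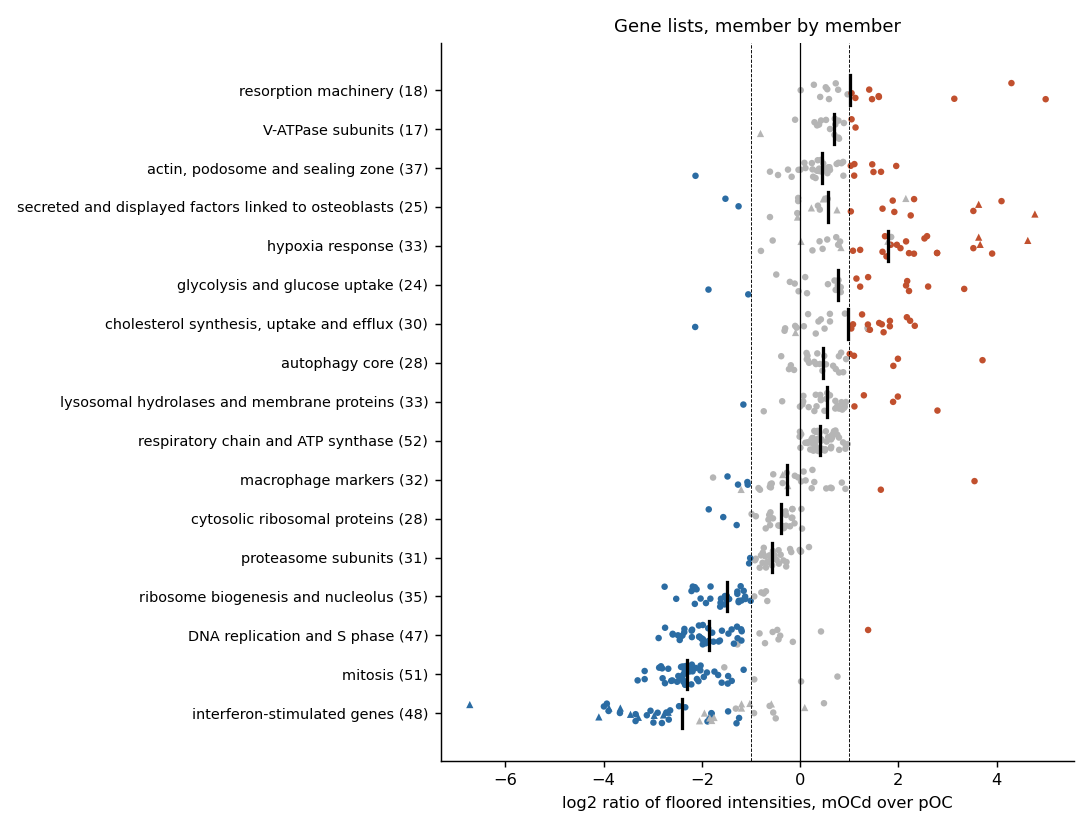
Each point is a measured gene's log2 ratio of floored intensities, mOCd over pOC, in 17 lists, with the number measured after each name. Triangles are genes at the floor on 1 array (bounds), bars are medians and dashed lines 2-fold, and the medians run from 1.79 for the hypoxia list to −2.40 for interferon-stimulated genes.

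Genes induced by interferon, the signal of antiviral defence, formed the lowest list shown. Of 36 eligible members 32 were lower in mOCd and 0 higher (88.9%), with a median log2 ratio of −2.40 over 48 measured genes. Because 19 of the 48 were at the floor on 1 array, this median depends in part on bounds. Oas1a, a sensor of double-stranded RNA, read 1738.9, 1325.6, 140.7 and 83.3 in BMM, pOC, mOCp and mOCd (15.9-fold lower than in pOC). Ifitm3, a membrane protein that blocks virus entry, read 4561.7, 4820.1, 1104.1 and 315.7 (15.3-fold lower). Both genes were about as bright in pre-osteoclasts as in macrophages, and lowest on dentin. Other members, such as Usp18 and Ifih1, were already dimmer in pOC (154.7 and 172.8) than in BMM (650.8 and 557.7).

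The list's regulators were lower as well. Irf7, the transcription factor that amplifies interferon production, read 473.8, 270.0, 61.8 and 6.9 in BMM, pOC, mOCp and mOCd (at least 17.1-fold lower than in pOC). Irf9, the DNA-binding subunit of the interferon-activated factor, was 5.05-fold lower, and Usp18, a feedback inhibitor of the receptor, at least 9.79-fold. The RNA sensors Ifih1 and Dhx58 were at least 10.9-fold and 7.83-fold lower, and Ddx58 10.2-fold. Another Ddx58 probe set gave −1.42 as a bound. A further one, at 14.7 in pOC and 9.1 in mOCd, lay near or under the floors and gave 0.10. Sting1, the adaptor of DNA sensing, was not on the list and was at least 10.4-fold lower (164.2 and 12.6).

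Not every value of this group is equally firm. Rtp4 had the lowest ratio of all named genes, at 1667.0 in pOC and 14.9 in mOCd (at least 106-fold lower, log2 ratio −6.72 as a bound). Its other probe set read 15.5 in pOC, barely over the floor, and 0.8 in mOCd. The floored ratio of that probe set, 0.03, therefore cannot show a fall. Parp14 was 7.92-fold lower and its other probe set gave 0.58. Psmb8 and Tap1, of the immunoproteasome and the peptide transporter, were 5.52-fold and 3.58-fold lower. Other probe sets gave −0.63 and −0.38 as bounds, from dim pOC values (24.4 and 20.6) and mOCd values under the floor (1.8 and 0.9). Ifitm2, a close relative of Ifitm3, had the opposite direction, at 2397.9 in pOC and 3357.2 in mOCd, and how the near-identical sequences of this family share signal was not tested. Some counted members lie close together in the genome. Psmb9, Tap1 and Psmb8, in RefSeq order, formed a run of 3 consecutive genes counted lower. Parp14 and Parp9 formed such a run with Dtx3l between them, which was counted lower but was not on the list. Runs of 3 also occurred among other genes, such as Emilin2, Smchd1 and Ndc80 (lower) and Ppm1j, Rhoc and Mov10 (higher).

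The core of the interferon response element, GAAA followed by any 2 bases and GAAA again, on either strand, stood in 15 of 28 promoters of the members counted (53.6%). It stood in 6 of 18 promoters of measured members not counted (33.3%), and in 3.44% of all promoters. Among the members counted, matches began in the last 50 bases before the start site in 17.9% of promoters and in the first 50 bases after it in 21.4%. The promoter of Oas1a is shown because this gene had the lowest ratio among named genes measured on both arrays, and the capitals are 2 overlapping matches that begin 20 and 14 bases before the start site (chr5:120907506-120907725, minus strand).
Oas1a: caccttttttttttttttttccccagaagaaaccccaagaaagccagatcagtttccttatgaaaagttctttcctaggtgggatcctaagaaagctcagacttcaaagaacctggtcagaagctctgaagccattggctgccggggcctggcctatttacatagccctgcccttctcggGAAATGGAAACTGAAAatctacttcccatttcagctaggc

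Genes of cell division were lower almost throughout. Of 49 eligible mitosis genes 46 were lower and 0 higher in mOCd (93.9%, median −2.30). Ube2c, an enzyme of the anaphase-promoting complex, read 1572.0, 1938.3, 258.4 and 216.4 in BMM, pOC, mOCp and mOCd (8.96-fold lower than in pOC). Cdc20, an activator of that complex, read 1414.5, 1374.2, 145.4 and 196.3 (7.0-fold lower), and Kif11, the motor that separates the spindle poles, 372.5, 245.4, 38.5 and 27.4 (8.96-fold lower). For these genes BMM and pOC lay within 2-fold of each other, and both osteoclast arrays lay well below them. Mki67, the proliferation marker, was 5.0-fold lower, and the kinases Cdk1, Aurka and Plk1 5.19-fold, 6.73-fold and 6.16-fold. Exceptions not counted were Pttg1 and Espl1, securin and separase, at 940.3 and 199.7 in pOC and 953.3 and 338.2 in mOCd. Spc25 was 7.11-fold lower, but its other probe set gave 0.38.

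In the DNA replication list 37 of 43 eligible genes were lower and 1 higher (86.0% and 2.33%, median −1.86). The replicative helicase subunits Mcm5, Mcm3 and Mcm7 were 6.72-fold, 5.12-fold and 5.11-fold lower, and Rrm1 and Rrm2, the subunits of ribonucleotide reductase, 5.46-fold and 3.93-fold. The 1 higher member was Chaf1b, a chromatin assembly factor, at 232.3 in pOC and 606.2 in mOCd (2.61-fold), and its other probe set lay under both floors. The licensing factor Cdt1 read 1973.0 and 1780.8 and was not counted. Of the cyclin D and inhibitor list 2 of 18 eligible genes were higher and 3 lower (11.1% and 16.7%), near the 10.8% and 12.3% of all eligible genes. Cdkn2b, an inhibitor of cyclin D kinases, was 2.01-fold higher, and Ccnd1 and Cdk4, cyclin D1 and its kinase, were 2.06-fold and 2.33-fold lower.

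The cell cycle homology region, TTTGAA on either strand, stood in 29 of 41 promoters of the mitosis genes counted (70.7%), in 2 of 3 of those measured and not counted, and in 17.9% of all promoters. Matches began in the first 50 bases after the start site in 41.5% of the promoters of genes counted, against 2.25% of all promoters, and in the 50 bases before it in 24.4% against 2.82%. None of the 4 motifs searched contains another. Members were chosen for function with results known, and the shares are a description with no test. The promoters of Ube2c (chr2:164769729-164769948, plus strand) and Cdc20 (chr4:118437324-118437543, minus strand) are shown for the position of the match, 29 and 18 bases before the start site.
Ube2c: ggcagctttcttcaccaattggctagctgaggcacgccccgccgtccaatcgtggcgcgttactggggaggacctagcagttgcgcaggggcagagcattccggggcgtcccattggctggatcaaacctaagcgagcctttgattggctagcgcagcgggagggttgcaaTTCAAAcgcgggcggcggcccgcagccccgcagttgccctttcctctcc
Cdc20: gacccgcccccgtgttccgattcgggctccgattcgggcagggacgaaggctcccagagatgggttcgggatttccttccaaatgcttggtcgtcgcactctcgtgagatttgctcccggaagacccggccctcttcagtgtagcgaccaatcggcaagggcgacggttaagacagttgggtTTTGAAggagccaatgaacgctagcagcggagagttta

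**Figure D4:**
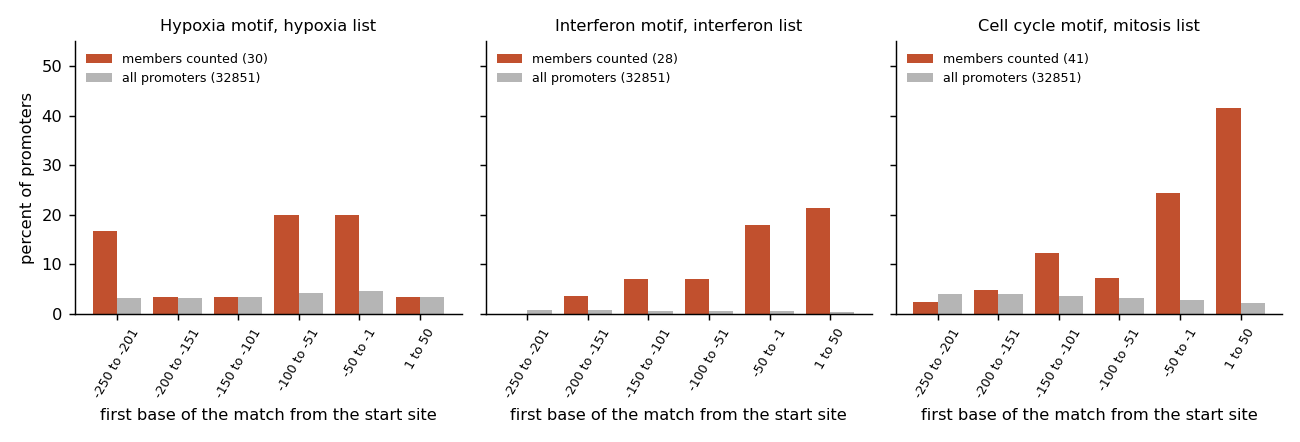
Bars give the percentage of promoters in which a motif match begins within each window of 50 bases, by distance from the start site, for members counted in the matching list (red) and for all 32851 promoters (grey). For the mitosis list the tallest red bar, 41.5%, lies in the first 50 bases after the start site, where all promoters stand at 2.25%.

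Ribosome production was lower as a list. All 35 ribosome biogenesis and nucleolus genes were measured and eligible, and 30 of them were lower and 0 higher (85.7%), with all 35 ratios below 0 (median −1.49). Nop58, a core protein of the particles that modify ribosomal RNA, read 264.4, 442.8, 47.4 and 65.5 in BMM, pOC, mOCp and mOCd (6.76-fold lower than in pOC). Dkc1, the pseudouridine synthase dyskerin, read 419.7, 649.1, 84.3 and 113.1 (5.74-fold lower), and fibrillarin (Fbl), the methylase of ribosomal RNA, 990.4, 1685.3, 545.4 and 599.2 (2.81-fold lower). For these genes pOC was the brightest of the 4 arrays. The nucleolar proteins Npm1 and Ncl, the brightest members, were 2.22-fold and 2.01-fold lower, and Polr1a and Polr1b, subunits of the polymerase that copies ribosomal genes, 2.29-fold and 3.55-fold.

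The ribosome's own proteins differed less. Of 28 eligible cytosolic ribosomal protein genes 3 were lower (10.7%, near the 12.3% of all eligible genes) and 0 higher. Their median was −0.38, and 18 further members of the list were not analysed here. Pseudogene copies can share signal with these genes, and that was not resolved. Proteasome subunits had 2 lower among 31 (6.45%, median −0.57), with 28 of 31 ratios below 0. Genes of the endoplasmic reticulum had 4 higher and 5 lower among 27 (14.8% and 18.5%), near the 10.8% and 12.3% of all eligible genes. Ero1a, an oxidase of protein folding that also belongs to the hypoxia list, was 4.12-fold higher. The disulfide isomerase Pdia4 and the chaperone partner Sdf2l1 were 4.54-fold and 3.89-fold lower.

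**Figure D5:**
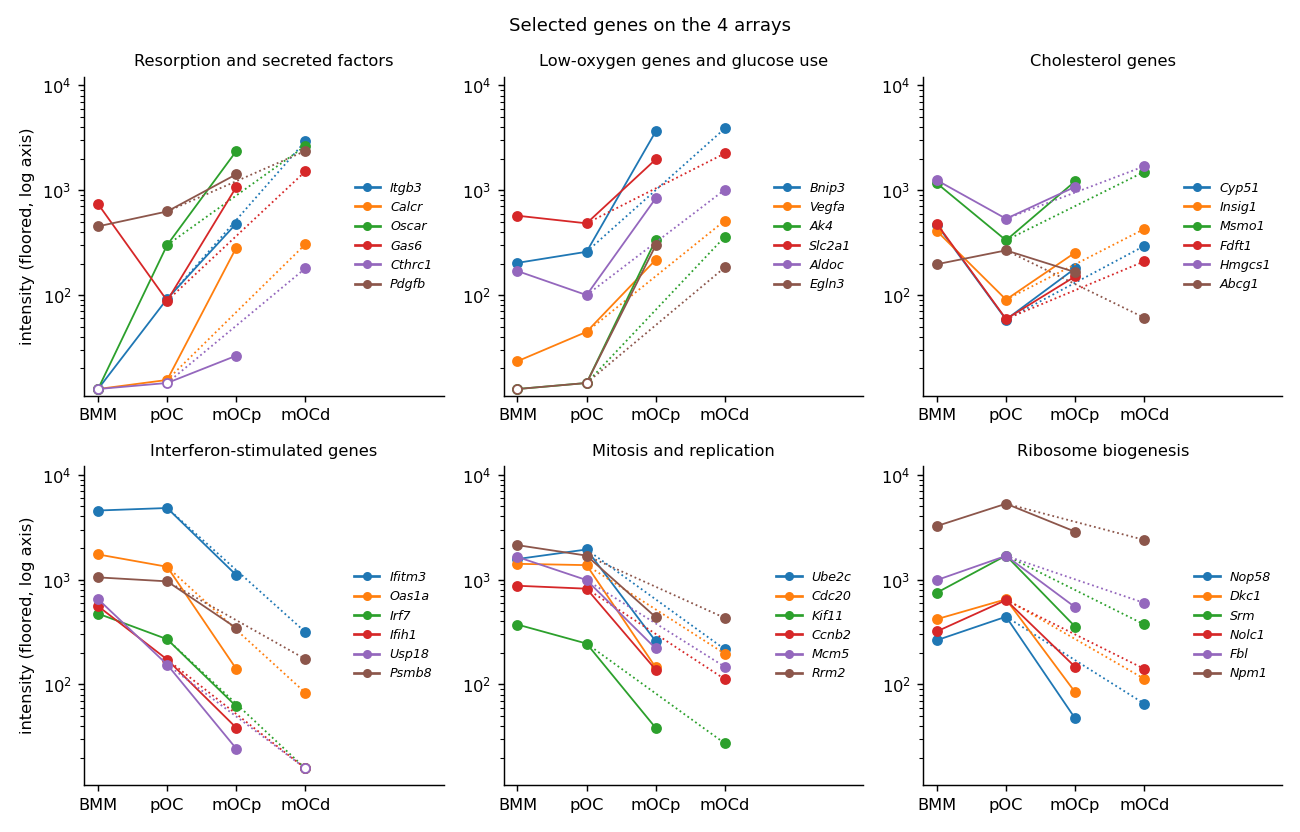
Intensity on a log axis of 6 genes in each of 6 groups on the 4 arrays, floored, with open circles for values at or under the floor. Solid lines join BMM, pOC and mOCp, and dotted lines join pOC to mOCd; cholesterol genes other than Abcg1 have their lowest value in pOC, and ribosome biogenesis genes their highest.

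Macrophage markers had 2 higher and 4 lower among 24 eligible genes (median −0.26). These shares, 8.33% and 16.7%, were near the 10.8% and 12.3% of all eligible genes. Marco, a scavenger receptor, read 56.3, 35.8, 1527.0 and 419.0 in BMM, pOC, mOCp and mOCd (11.7-fold higher than in pOC, 3.70 on its other probe set). The scavenger receptor Msr1 was 2.78-fold lower, the Fc receptor Fcgr3 2.40-fold and the complement gene C1qc 2.10-fold. Fcgr2b was 2.09-fold lower, and without suffixed probe sets both of its values lay under the floors. Csf1r, the M-CSF receptor, read 4898.6 and 7644.1 and the lysozyme Lyz2 5683.8 and 5970.7, neither of them counted.

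Chemokines and cytokines were evenly split, 5 higher and 5 lower among 20 (25% each, against 10.8% and 12.3% of all eligible genes). Ccl5, a T cell attractant, read 27.1, 167.3, 311.9 and 3.5 in BMM, pOC, mOCp and mOCd, at least 10.6-fold lower on dentin than in pOC, while on plastic it lay above pOC. Cxcl10, which interferon induces, was 3.52-fold lower and the monocyte attractant Ccl2 2.62-fold, whereas the neutrophil attractants Cxcl2 and Cxcl3 were 5.16-fold and 2.65-fold higher. Of the immune receptor and kinase list that signals through ITAM adaptors, 4 of 16 were higher and 2 lower (25% and 12.5%). Beside Oscar these included the ubiquitin ligase Cblb at 3.16-fold and the kinase Syk at 2.38-fold higher, the latter with −0.18 to 0.38 on other probe sets, and Trem2 at 2.33-fold lower.

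Smaller groups held single members with large ratios. Mt3, a metal-binding metallothionein, read 9.2, 372.2, 3979.2 and 4561.5 in BMM, pOC, mOCp and mOCd (12.3-fold over pOC), and Slc30a1, the zinc exporter of the cell membrane, 131.4, 278.6, 279.9 and 814.0 (2.92-fold), with −0.61 on its other probe set. St8sia6, which adds sialic acids to glycans, was 13.9-fold higher (27.5 and 383.0), with 3.62 and 4.07 on its other probe sets. Atp1b1, a subunit of the sodium pump, was 9.74-fold higher, and the phosphate exporter Xpr1 3.32-fold (1546.4 and 5134.1), with other probe sets from −0.57 to 1.12. Arg1, encoding arginase, read 5.9, 1.6, 821.7 and 88.1, at least 6.08-fold higher on dentin than in pOC and brighter still on plastic. Of 32 eligible genes of amino acid transport, serine synthesis and targets of the factor ATF4, 4 were higher and 3 lower. These shares, 12.5% and 9.38%, were near the 10.8% and 12.3% of all eligible genes. Among the lower were Psat1 and Shmt2, enzymes of serine and one-carbon metabolism (4.95-fold and 3.35-fold).

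Outside the lists, the genes with the largest ratios measured on both arrays included Cfap45, a protein of cilia (12.6-fold higher), and the phosphatase Ptpn3 (12.1-fold). The collagen prolyl hydroxylase P3h2 (11.9-fold) and the adaptor Sorbs2 (10.7-fold) were also among them. Another Sorbs2 probe set read 1.2 in pOC, under the floor, and 23.6 in mOCd, a log2 ratio of at least 0.70. H2ac19, a histone H2A gene with near-identical copies, was 14.2-fold higher and cannot be assigned to 1 copy. Enpp5, of the ectonucleotide pyrophosphatase family, was under the floor in pOC (1.9) and read 523.7 in mOCd, at least 36.1-fold higher. Vldlr, a lipoprotein receptor, and Rragd, a GTPase that signals nutrient supply at the lysosome, were at least 16.1-fold and 10.6-fold higher. Other probe sets gave as little as 0.10 and −0.02. Those 2 lay near the floors, at 14.7 and 16.3 in pOC and 13.9 and 16.1 in mOCd. On the low side stood Gas7 (11.6-fold lower), the antiviral deaminase Apobec3 (8.53-fold), the repair factor Parpbp (8.61-fold) and the efflux pump Abcb1b (at least 7.13-fold). Other Gas7 probe sets above a floor gave log2 ratios from −1.86, a bound, to −0.40.

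Markers of cells other than osteoclasts and macrophages were mostly dim, with the neutrophil gene S100a8 the brightest at 380.1 in pOC and 506.8 in mOCd. Of the 22 genes of stromal, osteoblast and dentin-forming cells 13 were under both floors and 0 were counted, and their summed intensity was 409 in pOC and 366 in mOCd. Dspp and Dmp1, of the cells that make dentin, read 1.2 and 1.1 in mOCd, and the collagen gene Col1a1 2.8. Dcn, a matrix proteoglycan, was the brightest of the list at 196.1 in pOC and 127.3 in mOCd. The erythroid, B cell, T and NK cell and endothelial lists had 0 counted, with sums of 61.6, 102, 126 and 199 in pOC and 105, 57.6, 152 and 195 in mOCd. The neutrophil list summed to 1027 and 1140, with Ngp 2.26-fold higher, and the dendritic and mast cell list to 133 and 210, with Itgax 2.98-fold higher. The part of these cells in the results was not tested.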

How the data were processed

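Expression was measured on Affymetrix arrays, 1 per stage. The deposited values are linear signal intensities, 1 per probe set; MAS5 is named, without a version, in the submitters' processing notes. In the deposited table the trimmed mean (2% off each end) equalled 100.0 for each array, so differences in total mRNA are not visible. MAS5 subtracts a mismatch background, which leaves dim values imprecise, and detection calls were not used here. No read depth exists for arrays; their number limits the precision.

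Of 45101 probe sets 64 were controls. Among the rest, 34945 carried 1 gene symbol, 932 several and 9160 none in a platform annotation dated 2016. Of the 34945, 34741 matched a RefSeq gene (GRCm38.p6) by Entrez identifier. A gene was represented by its probe set with the highest mean log2 floored intensity over the 4 arrays. The floor was the 50th percentile, counting needed 2-fold and the 75th percentile, and unnamed probe sets were left out. Because values of 0 have no log2, a ranking scale had to be chosen: 5 were tried, and floored values were kept after the counts had been seen, because they matched an earlier description of these data. The other 4 are among the alternatives.

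The comparison was mOCd over pOC, with no test, since each group has 1 array. The probe-set SD is that of the difference of log2 ratios between 2 probe sets of a gene, divided by the square root of 2. Genes were named when among the 15 highest or 15 lowest ratios measured on both arrays, among the 10 brightest on each side whose other array lay at the floor with at least 4-fold, on any of 48 gene lists, or Cthrc1; clone-named transcripts were counted only. The comparison, lists and motifs were chosen with earlier results of these data known, and the promoters shown after values were seen. List medians cover members above the floor on at least 1 array. Members without a probe set of 1 name were not analysed here. Alternatives covered scaling, floor, probe set, brightness and fold. The counting code was checked on simulated data with 4-fold changes in bright genes and little noise. That check does not measure the error of counts on these arrays. Computation used Python 3.11.15, pandas 2.3.3, numpy 2.4.6 and statsmodels 0.14.6.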

Additional observations from a re-analysis of the deposited data

Results flagged for a closer look

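Probe sets without a gene name were outside the comparison, and the same counting rule was applied to them separately. Of 651 eligible unnamed probe sets 189 were higher in mOCd than in pOC (29.0%) and 85 lower (13.1%), against 10.8% and 12.3% of named genes. The brightest unnamed probe set at or under the floor in pOC read 333.2 in mOCd against 13.9 in pOC (51.1 in mOCp, 0.7 in BMM), at least 23.0-fold higher than in pOC. What the unnamed probe sets measure was not tested.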

How the results depend on the processing

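With the spike-ins set equal, 443 genes were higher and 1596 lower. A 3-fold threshold gave 328 and 350, and a 1.5-fold threshold 1608 and 1741. Under the other alternatives the counts stayed within 1.5 times the reported 779 and 886, from 548 and 623 (mean over probe sets) to 1100 and 1162 (brighter value above the floor only). The 4 other ranking scales, added after the counts were seen, gave 778 or 779 higher and 885 or 886 lower. Of 4168 values of 351 named genes under the alternatives, 3993 moved by less than the probe-set SD of 0.56, 171 moved by more and 4 reversed: Mtf1, 2.56-fold lower as reported, had log2 ratios of 0.056 with the mean over probe sets and 0.23 without suffixed probe sets (_a_at, _s_at, _x_at), and without these Spc25 gave 0.38 and Fcgr2b 0.12, which is the ratio of the floors. List medians changed sign for 21 of 48 lists. The medians of the hypoxia, cholesterol, resorption, interferon, mitosis, replication and ribosome biogenesis lists kept their sign under all alternatives run, the interferon list between −2.75 and −1.80 and the hypoxia list between 1.36 and 1.85. No paired analysis was possible because each group has 1 array. Leaving out a replicate was not possible for the same reason. Signal near background limits dim genes most.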
